A study of Mus musculus with 12 samples.

Results

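The step between embryonic days E12.5 and E14.5 in the epithelium of the mouse small intestine was described through H3K27me3, the trimethylation of lysine 27 on histone H3. The mark had been mapped by chromatin immunoprecipitation and sequencing (ChIP-seq), and each library came as a list of enriched islands that begin and end on a grid of 200 bp windows. A window was classed as gained when both E14.5 libraries and neither E12.5 library covered it, as lost in the reverse case, and as kept when all 4 libraries covered it. Unbroken stretches of these classes numbered 6511 gained, 936 lost and 2623 kept, 10070 in all, while 29391 stretches were called in at least 1 of the 8 ChIP libraries of the series. Both embryonic groups were EpCAM-positive cells of mixed C57BL/6 CD1 strain, sorted without CD31- and CD45-positive cells, and each gave 2 ChIP libraries that the series design calls biological duplicates. The labels give no genotype or sex for the embryos and do not say how many were pooled. Adult calls are shown beside the classes. They come from Lgr5EGFP-Cre-ERT males at postnatal day 60, with 2 libraries of intestinal stem cells (ISC) and 2 of enterocytes (AE). The sorted cell type could not be checked against markers, because the islands are given by coordinate on mouse build mm9 without gene names, and an mm9 annotation was not used here. Whether a region lies in a gene, exon or intron is therefore not given, and regions are named by coordinate.

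H3K27me3 is placed by Polycomb repressive complex 2, whose catalytic subunit is EZH2 or EZH1. Its EED subunit binds the mark that the complex itself has made, so a marked domain can extend from its starting sites into neighbouring chromatin. Broad H3K27me3 domains cover silent developmental regulators, and removal of the mark requires demethylases or dilution through cell division. Between the 2 ages the gut tube epithelium passes from a layer without villi to the onset of villus formation. On the X chromosome of female cells, the silenced copy is also marked over much of its length.

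The 4 lists differed in how islands were built as much as in age, and E12.5 replicate 1 stood apart. It held 6171 islands with a median length of 8.8 kb, against 12649 islands and 4.6 kb in E12.5 replicate 2, 8185 and 7.0 kb in E14.5 replicate 1, and 9940 and 8.4 kb in E14.5 replicate 2. The middle 50% of its islands ran from 15.6 to 18.9 ChIP reads per kb, the narrowest span of the 4. Those of E12.5 replicate 2 ran from 18.9 to 27.1, those of E14.5 replicate 1 from 26.0 to 40.9 and those of E14.5 replicate 2 from 17.1 to 27.9. The control counts differed little, with medians of 20.9, 20.8, 21.3 and 21.5 reads per kb in the same order. E12.5 replicate 1 thus had the lowest median of ChIP reads per control read, 0.805, followed by 0.953 in E14.5 replicate 2, 1.04 in E12.5 replicate 2 and 1.46 in E14.5 replicate 1. These ratios depend on the unknown depth of each library, so they order the lists and do not measure the mark across them. ChIP reads inside islands numbered 1171968 and 2114128 in E12.5 replicates 1 and 2. They numbered 3020599 and 2999884 in E14.5 replicates 1 and 2, so this count also split by age. Where 2 lists held exactly the same interval, the E14.5 control carried 0.991 to 1.05 times as many reads as the E12.5 control (12 to 50 intervals per pair), so the controls were counted at close to equal density. Replicates of 1 age had the same control count in each of the 30 (E12.5) and 52 (E14.5) intervals they shared, so 1 control serves both replicates of an age.

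**Figure D1:**
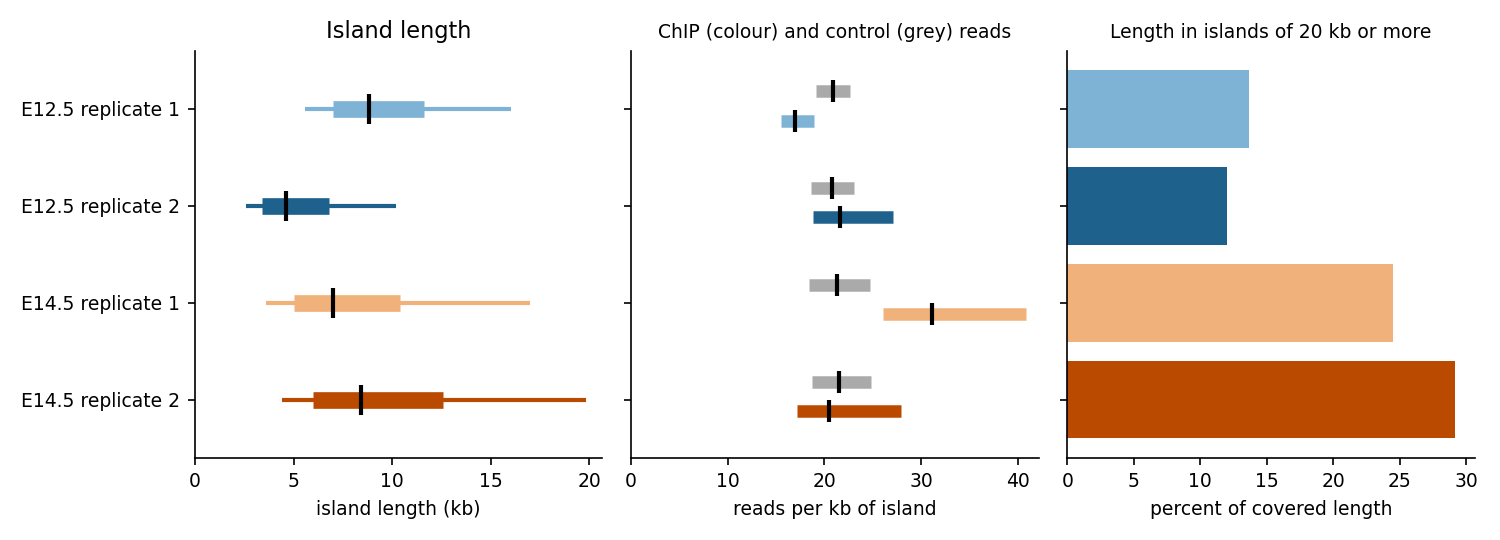
Islands of the 4 embryonic libraries. Left, island length in kb (thin line 10th to 90th percentile, thick line 25th to 75th, tick median); middle, ChIP (coloured) and control (grey) reads per kb of island (25th to 75th percentile, tick median); right, percent of covered length in islands of 20 kb or more, 13.7 and 12 in the E12.5 libraries against 24.5 and 29.2 in those of E14.5.

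Long islands took a larger part of the E14.5 lists. Islands of 20 kb or more held 13.7% and 12% of the covered length in the E12.5 replicates, and 24.5% and 29.2% in the E14.5 replicates. The ages did not overlap: 12.8% ± 1.21 at E12.5 against 26.8% ± 3.29 at E14.5 (SD, n = 2 each), with an exact two-sided permutation p of 0.333, the smallest that 2 libraries against 2 can give. Such islands numbered 316 and 300 in the E12.5 lists and 580 and 980 in the E14.5 lists. ChIP reads inside islands were also more numerous in both E14.5 libraries, and the part of read number in island length was not tested. Median island length did overlap between the ages, at 6.70 ± 2.97 kb and 7.70 ± 0.990 kb (SD, n = 2 each; exact permutation p = 1). The difference of 1.00 kb turned to −1.1 kb without E12.5 replicate 2. Covered length was 69.3 ± 9.49 Mb at E12.5 and 92.5 ± 23.5 Mb at E14.5 (SD, n = 2 each), and the ranges overlapped (exact permutation p = 0.667). The overlap was slight, with 75.96 Mb in E12.5 replicate 2 and 75.87 Mb in E14.5 replicate 1. With islands above 2 times the list's median control density left out, they covered 75.09 and 75.30 Mb. The ranges then did not overlap (exact permutation p = 0.333). Since E14.5 replicate 2 covered 109 Mb and the other 3 libraries 62.5 to 76.0 Mb, the difference in covered length rested mainly on 1 library. It was 6.62 Mb without that library.

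Of the 188 Mb called in any of the 4 libraries, 113 Mb was called in a single one. The gained class held 9.56% of the called windows, the lost class 1.36% and the kept class 9.87%. These shares are set by the classing and are given as a description. The lengths were 18 Mb gained, 2.56 Mb lost and 18.6 Mb kept. A further 17.4 Mb was covered in both E14.5 libraries and in E12.5 replicate 2 but not in E12.5 replicate 1, and 3.11 Mb in both E14.5 libraries and E12.5 replicate 1 only. Windows that E12.5 replicate 1 alone did not call were thus nearly as long as the whole gained class. Lost windows come from the 23.3 Mb that both E12.5 lists share, and gained windows from the 57.1 Mb that both E14.5 lists share. The unequal lengths of the 2 classes therefore do not by themselves show a direction of change. Without E12.5 replicate 1, losses came to 28.3 Mb and gains to 21.1 Mb, each loss then resting on a single E12.5 list. Kept stretches were longer, with a median of 5.6 kb, against 2.0 kb for gained and 2.4 kb for lost stretches. Stretches of 10 kb or more numbered 496 of the 2623 kept, 135 of the 6511 gained and 7 of the 936 lost.

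Gained length lay both in runs that no E12.5 library touched and at borders of runs that E12.5 had in part. A run here is an unbroken stretch covered in both E14.5 libraries, and 6838 were found. Of these, 1786 (26.1%) held no E12.5 window, and these new runs made up 8.42 Mb, or 46.8% of the gained length. Outer edges of the 5052 other runs made up 8.29 Mb (46.0%), and length between E12.5 windows of the same run made up 1.29 Mb (7.17%). The near-equal split of new runs and edges depended on the lists: it was 26.2 against 8.30 Mb without E12.5 replicate 2 and 9.26 against 10.1 Mb without E12.5 replicate 1. It was 30.3 against 23.5 Mb without E14.5 replicate 1 and 18.7 against 13.1 Mb without E14.5 replicate 2. Edge gain was as long on the left, 4.11 Mb, as on the right, 4.18 Mb. It was present at both ends of 899 runs and at 1 end of 2335, and absent from 1818. A single gained edge had a median length of 1.4 kb and a 90th percentile of 4.4 kb, while a new run had a median of 4.4 kb. New runs lay a median of 14.6 kb from the nearest E12.5 island of either replicate, with 522 of 1786 (29.2%) at 5 kb or less and 448 (25.1%) beyond 50 kb.

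Lost length had another layout. Of the 3435 runs covered in both E12.5 libraries, 545 held no E14.5 window, and these vanished runs made up 2.01 Mb, or 78.7% of the lost length. Edges gave 0.522 Mb (20.4%) and inner length 0.0224 Mb (0.877%). Only 16 E12.5 runs were trimmed at both ends and 347 at 1 end, while 2527 had no trimmed edge. The 2 layouts are not measured with equal reach, because the E14.5 lists share more length with each other than the E12.5 lists do. Replicates agreed only in part in either case. Length called in a single library came to 32.1 and 25.8 Mb for E12.5 replicates 1 and 2, and 15.6 and 39.5 Mb for E14.5 replicates 1 and 2. Runs in which a loss can be seen came to 23.3 Mb, and runs in which a gain can be seen to 57.1 Mb. Each is counted against the union of the 2 lists of the other age.

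**Figure D2:**
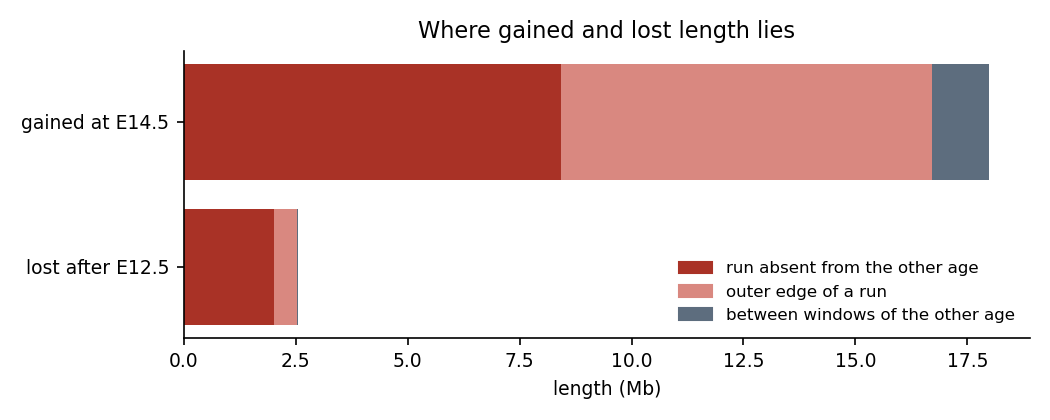
Length in Mb of the gained class (upper bar) and the lost class (lower bar), split into runs absent from the other age, outer edges of runs and length between windows of the other age. New runs and edges gave 8.42 and 8.29 Mb of the gains, and vanished runs 2.01 Mb of the losses.

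Runs with more kept length more often had a gained edge. Among E14.5 runs with up to 3 kb of kept length, 38.4% of 344 had an edge gain. The share was 44.6% of 729 runs with 3 to 6 kb, 52.1% of 691 with 6 to 12 kb, 59.5% of 289 with 12 to 24 kb and 68.3% of 104 with more than 24 kb. Gains between E12.5 windows were found in 8.72%, 7.41%, 12.4%, 24.6% and 43.3% of the same groups. A long run offers more inner length, and its size at E14.5 includes what was gained. The mean edge gain was 0.833 kb for the first group, with a median run of 5 kb, and 2.20 kb for the last, with a median run of 43.6 kb. It was thus longer in the last group but smaller beside the run. The median edge gain was 0 kb in the first group and 1 kb in the last.

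Borders of single islands, matched one to one between 2 lists, moved outward with age by 0.4 to 1.2 kb at the median, beside 0.4 and −0.2 kb between replicates. The median outward shift was 0.4 and 1.2 kb from E12.5 replicate 1 to E14.5 replicates 1 and 2, and 0.6 and 1.2 kb from E12.5 replicate 2 to the same. From E14.5 replicate 1 to E14.5 replicate 2 it was 0.4 kb, and from E12.5 replicate 1 to E12.5 replicate 2 it was −0.2 kb. Across age, 55.6%, 61.9%, 61.5% and 71.1% of borders moved outward. In the replicate pairs the share was 58.7% (E14.5) and 40.2% (E12.5). The 2 pairs ending at E14.5 replicate 2, the longest list, therefore exceeded the replicate shift, and the 2 pairs ending at E14.5 replicate 1 did not exceed it by more than 1 window of the grid. Left and right borders gave the same medians to within 1 window in each of the 6 pairs. Joining of islands was counted apart from shifts. In the 4 pairs across age, 257, 306, 731 and 995 E14.5 islands each spanned several E12.5 islands, while 152, 171, 215 and 207 E12.5 islands spanned several E14.5 islands. Replicates of 1 age also differed: 667 islands of E14.5 replicate 2 spanned several of replicate 1 and 425 the reverse, and 210 islands of E12.5 replicate 2 spanned several of replicate 1 and 392 the reverse.

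**Figure D3:**
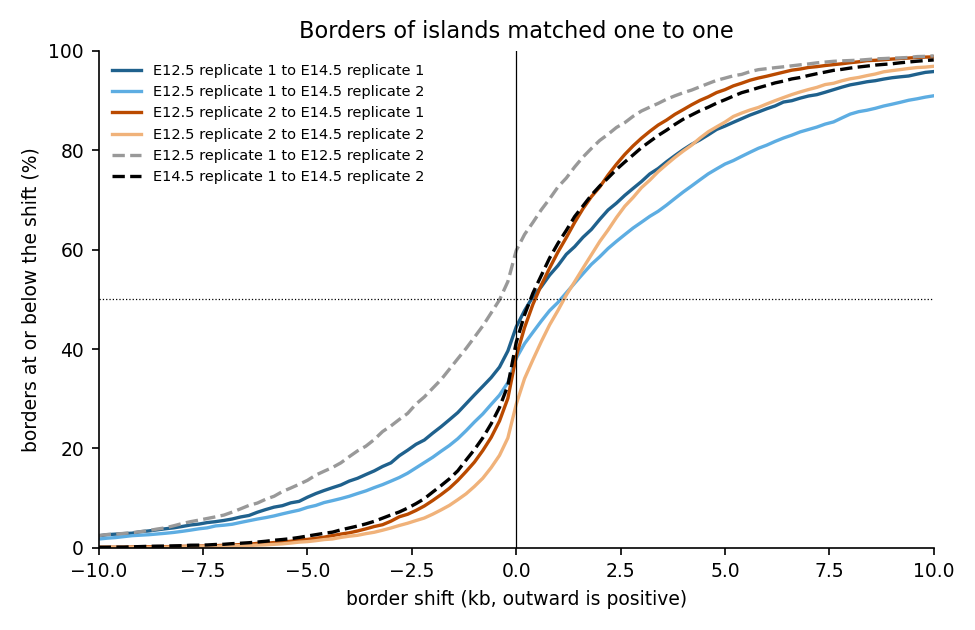
Cumulative percent of island borders (y axis) by outward shift in kb (x axis) for islands matched one to one, with solid lines for the 4 pairs across age and dashed lines for the 2 replicate pairs. The curve of the E14.5 replicates, with a median shift of 0.4 kb, lies close to that of E12.5 replicate 2 to E14.5 replicate 1, with a median of 0.6 kb.

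The longest new run was at chr18:60398401-60437600 (39.2 kb), 91.2 kb from the nearest E12.5 island. Its islands held 39.2 ChIP reads per kb over 13.6 control reads per kb in E14.5 replicate 1 and 29.1 over 13.5 in replicate 2, so both replicates lay above the median ratio of their lists. It belonged to the largest cluster of gains, 307.4 kb at chr18:60336401-60643800 with 19 gained stretches and 188.4 kb of gained length. The E12.5 lists covered 0 and 7.6 kb of that span, the E14.5 lists 214.2 and 220.6 kb, ISC 178.4 and 69.8 kb, and AE 200.2 and 89.0 kb. Control reads there were 14.6 and 14.4 per kb in the E14.5 islands, below the list medians. The run at chr18:60346801-60364600 (17.8 kb) is the fifth longest new run and lies in the same cluster.

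The other new runs of the longest 5 were on chromosome 15, and their adult calls differed. At chr15:12665801-12689200 (23.4 kb), ChIP and control reads per kb were 39.9 and 22.0 in E14.5 replicate 1 and 29.4 and 21.1 in replicate 2, and adult libraries covered 36.8% to 70.9%. At chr15:77565801-77589000 (23.2 kb) the values were 37.8 over 23.9 and 33.1 over 23.1, but no adult library covered more than 4.31%. This region was thus called at E14.5 and almost not called in any other of the 8 libraries. At chr15:101688201-101709000 (20.8 kb) the values were 33.0 over 24 and 22.8 over 23.9, and adult libraries covered 67.3% to 100%. It lay only 1.2 kb from an E12.5 island.

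The 6 runs with the most edge gain touched an island of E12.5 replicate 2 and none of replicate 1. At chr2:148653401-148676800, an E12.5 replicate 2 island of 1.8 kb, with 0.956 ChIP reads per control read, stood where E14.5 had islands of 23.4 and 26.8 kb. Their ratios were 2.47 and 1.75, above the medians of both lists. At chr4:46319401-46340000, 2.6 kb at E12.5 stood within 20.6 and 32.8 kb at E14.5, with ratios of 1.1 and 0.734 ChIP reads per control read, below the medians. The run at chr4:55654201-55675200 went from 3.0 kb to 26.0 and 25.4 kb and grew on both sides, by 7.4 and 10.6 kb. The other 3 were chr18:60530001-60557000, inside the cluster above, chr15:102682201-102707600 and chr8:19935201-19953600. The last had 68.1 and 64.9 control reads per kb, over 3 times the list medians, and ratios of 1.08 and 0.657.

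Inner gains lay between windows of either E12.5 list, which need not be islands of the same replicate. A run by its definition lies within 1 island of each E14.5 library. At chr19:44698801-44840200 (141.4 kb), E12.5 replicate 1 had 5 islands over 69.7% of the run and replicate 2 had 6 over 85.1%, while each E14.5 library had 1 island, of 141.6 and 151.8 kb. ChIP over control reads per kb in the longest island of each library were 23.9 over 23.7 and 41.8 over 21.9 in the E12.5 libraries, then 66.3 over 24.4 and 54.9 over 24.5 in those of E14.5. At chr15:81879001-81948600 (69.6 kb), 2 and 4 E12.5 islands stood where E14.5 had 1 island of 69.6 and 70.2 kb, with 22.8 kb gained between them. At chr17:44680401-44704400 each E12.5 replicate had 1 island and no length was kept, so the gain lay between islands of different replicates. At chr4:124056601-124076000 replicate 1 had 0 islands and replicate 2 had 2. At chr8:12482401-12510600 replicate 1 had 2 and replicate 2 had 1. At chr8:12482401-12510600, 12.6 kb was gained between E12.5 windows, and at chr17:44680401-44704400 and chr4:124056601-124076000 14 and 15.8 kb. The last 2 were called over 100% and 97.9% in ISC replicate 1, whose list is by far the longest of the adult ones, over only 15.8% and 11.3% in ISC replicate 2, and over 0% in both AE libraries.

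The longest kept stretch lay in islands that were longer at E14.5 than at E12.5. It spanned 118.8 kb at chr15:102724801-102843600, where the islands measured 118.8 and 120.0 kb in the E12.5 lists and 197.4 and 198.0 kb in the E14.5 lists. Reads per kb were 24.8, 62.2, 77.8 and 68.2 for ChIP and 21.3, 21.3, 21.7 and 22.2 for control, in the order E12.5 replicates 1 and 2, then E14.5 replicates 1 and 2. The fourth longest, at chr11:96111201-96167800 (56.6 kb), went from islands of 56.6 and 70.0 kb to 101.4 and 108.8 kb, with ratios of 1.18 and 2.56, then 2.83 and 2.50 ChIP reads per control read. The other 3 of the longest 5 had high control counts and little change in size. The islands at chr11:3025401-3100200 held 422 to 441 control reads per kb, those at chrY:2847601-2902600 held 274 and 291, and chr1:85234401-85297200 54.8 to 58.4. In all 3 the E12.5 ratios were below 0.95, and control density was 2.63 to 21.2 times the list median over the 4 libraries.

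Within each list, islands over kept length had a higher ratio of ChIP to control reads than islands over gained or lost length. The calls were made from these same counts, so this is a description and not an independent test. Set against the median of their own list, islands holding kept length stood at 1.07 and 1.42 in the E12.5 replicates and 1.23 and 1.45 in the E14.5 replicates. Islands holding gained length stood at 1.03 and 1.15 (E14.5), and islands holding lost length at 0.977 and 0.963 (E12.5). Among the gains, new runs were lowest, at 0.951 and 1.00, then edges, at 1.1 and 1.26, then inner gains, at 1.12 and 1.30. Reads are given per island, so an edge carries the value of the whole island it belongs to. Kept and gained islands of equal length differed in the same direction in most bands: from 5 to 10 kb the medians were 1.14 for islands with kept and no gained length against 0.957 for the reverse in E14.5 replicate 1, and 1.36 against 1.06 in replicate 2. Below 5 kb they were 1.03 against 1.07, and 1.30 against 1.26.

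The longest losses were called in few adult libraries. The 5 longest with control counts up to 2 times the list median were at chr1:85313601-85328600 (15.0 kb), chr9:61699401-61713000, chr4:146853801-146866400, chr10:80861401-80873000 and chr5:68221601-68232600 (11 kb). E12.5 ratios of ChIP to control reads were 0.693 to 0.741 in replicate 1, each below that list's median of 0.805, and 0.762 to 1.08 in replicate 2. In replicate 2 the stretches on chromosomes 10 and 5, at 1.06 and 1.08, lay above the list's median of 1.04 and the other 3 below it. The stretches on chromosomes 10 and 5 were called in no adult library. That on chromosome 1 was covered fully in ISC replicate 2 alone, that on chromosome 4 fully in AE replicate 1 alone, and that on chromosome 9 by 50.0% in ISC replicate 1. High control counts marked the lost class more than the gained one: 4.63% and 4.66% of the lost length lay in E12.5 islands above 2 times the list's median control density, 2.15% to 2.27% of the kept length in the 4 lists, and 0.267% and 0.239% of the gained length in the E14.5 lists. Most of the lost share came from the single longest loss, 83.2 kb at chr1:90106001-90189200, with 106 and 107 control reads per kb. It was called in no adult library. The part of input density in these calls was not tested.

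Gained stretches lay close to one another, more often than lost ones. With stretches up to 50 kb apart joined, the 6511 gained stretches formed 3246 clusters, of which 37 held 10 or more, and 25.2% of the stretches were in clusters of 5 or more. For kept stretches the share was 14.1% with 3 clusters of 10 or more, and for lost stretches 0% with at most 4 per cluster. These shares depend on how many stretches a class has, and for the gained class they were 4.73% and 53.4% at distances of 10 and 200 kb. They also depend on how runs are cut, since pieces of the same run count as separate stretches. Gains lay at both ends of 899 runs, and losses at both ends of 16. Closeness within a run was not separated from closeness between runs. By length, the richest 210 of the 2105 called 1 Mb bins held 47.1% of the gained, 58.6% of the kept and 73.0% of the lost length, against 32.9% of all length called in any embryonic library. A class with fewer stretches can fill fewer bins, so these shares do not rank the classes. Gained length was found in 1544 bins (73.3%), kept in 972 and lost in 541. Gained exceeded lost length in 1434 bins and the reverse held in 175. Gained and kept length per bin had a Spearman rho of 0.58 across the bins, as a description, since bins share libraries and neighbours. Even so, 643 bins held gained and no kept length.

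The 4 next largest clusters of gains differed in how much E12.5 already covered. At chr16:91067401-91356000, 22 gained stretches with 72.0 kb lay among existing islands, with 81.4 and 127.2 kb covered at E12.5 and 200.8 and 246.2 kb at E14.5. At chr8:12313001-12566000 the covered length was 74.2 and 106.2 kb, then 179.2 and 200.0 kb. At chr1:94372201-94540800 it was 11.4 and 24.4 kb, then 97.0 and 105.2 kb, and neither AE library covered any of it while ISC covered 77.8 and 19.8 kb. At chr6:114074201-114230200 it was 6.6 and 31.8 kb, then 95.8 and 120.4 kb. By 1 Mb bin the gains were largest at chr18:60000001-61000000 (194.2 kb), chr13:72000001-73000000 (130.0 kb), chr17:9000001-10000000 (118.0 kb), chr2:180000001-181000000 (115.6 kb) and chr15:102000001-103000000 (111.8 kb). The bins were chosen for this gain, so their embryonic values are not a result. Over the adult libraries, the chromosome 18 bin was covered by 80.6 to 244.8 kb and the chromosome 13 bin by 100 to 335 kb. The chromosome 2 and 15 bins were covered by 137 to 570.4 kb and 388.8 to 537.4 kb. The chromosome 17 bin was the exception. It was covered by only 5.2 to 16 kb in 3 of the 4 adult libraries, against 82.4 kb in ISC replicate 1.

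The X chromosome stood apart from all autosomes. It carried 0.640 Mb gained in 217 stretches, 0.0144 Mb lost and 0.120 Mb kept, a ratio of gained to kept length of 5.34. Autosomes ranged from 0.599 (chromosome 19) to 1.59 (chromosome 18), at 0.945 over all of them. The high ratio on X came with little kept length, in only 13 stretches. Of the length called on X in any embryonic library, 2.65% was kept, against 5.70% to 14.4% on the autosomes. The gained share differed less, at 14.1% on X against 6.65% to 11.9% on the autosomes. Islands on X covered 0.270 and 1.06 Mb in the E12.5 lists and 2.24 and 3.16 Mb in the E14.5 lists. As a share of the covered length this was 0.432% and 1.39%, then 2.95% and 2.89%, and 0.135% to 0.301% in the 4 libraries of adult males. The ages did not overlap (0.912% ± 0.679 and 2.92% ± 0.0377, SD, n = 2 each; exact permutation p = 0.333, the smallest possible). New runs made up 69.1% of the X gains, edges 29.5% and inner length 1.41%. Gains lay in 67 of 167 X bins of 1 Mb and kept length in 9. The bin with the most gain, chrX:96000001-97000000, held 60.8 kb of it, and no adult library called anything there. The E12.5 lists already covered 23.6 and 73.6 kb of that bin, and the E14.5 lists covered 122 and 329.4 kb.

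E12.5 replicate 2 shared much of the E14.5 pattern on X, and replicate 1 did not. Besides the gained class, 0.448 Mb was covered in both E14.5 libraries and E12.5 replicate 2 only, and 0.00700 Mb in both E14.5 libraries and E12.5 replicate 1 only. Without E12.5 replicate 1 the ratio of gained to kept length on X was therefore 1.14, against 0.579 on the autosomes. With high-control islands left out it was 11.3 against 0.963, and at equal covered length 9.08 against 0.640. Control reads per kb in X islands, as a median relative to autosomal islands and with high-control islands left out, were 0.765 and 0.741 for the E12.5 replicates and 0.712 and 0.711 for the E14.5 replicates. In the adult male lists they were 0.524, 1.06, 0.732 and 0.674 (ISC replicates 1 and 2, AE replicates 1 and 2), from only 9 to 48 X islands. The sex of the embryos is not in the labels, so age and the share of female embryos cannot be told apart for the X chromosome.

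**Figure D4:**
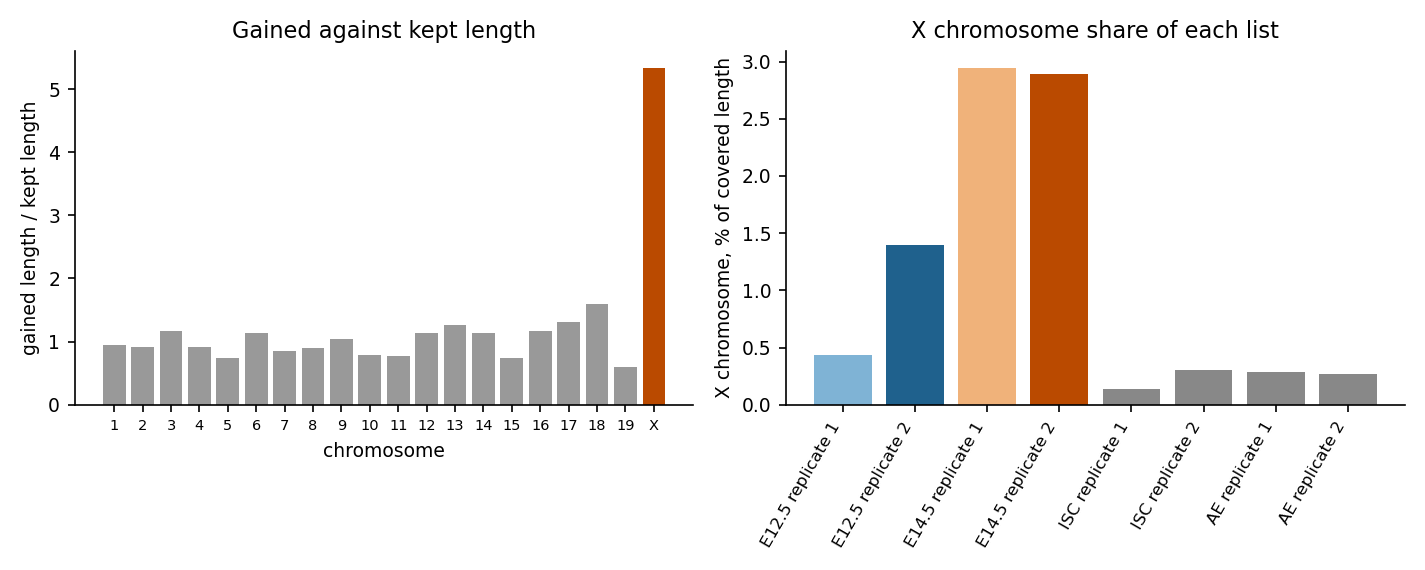
Left, ratio of gained to kept length for each chromosome except Y, with X in colour at 5.34 and all autosomes at 1.59 or less. The kept length on X was only 0.120 Mb. Right, percent of the covered length of each list that lies on X, highest in the E14.5 libraries at 2.95 and 2.89.

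Adult libraries, which the classing did not use, called gained length more often than lost length and less often than kept length. The mean over adult libraries was 37.0% for gained and 16.9% for lost length with all 4 embryonic libraries. The gap narrowed to 27.7% against 26.2% without E14.5 replicate 2, and to 26.8% against 19.2% without E14.5 replicate 1. It widened to 39.5% against 13.1% without E12.5 replicate 1, and to 44.3% against 9.63% without E12.5 replicate 2. The adult lists differed in size, and ISC replicate 1 covered 241 Mb against 60.8 Mb in ISC replicate 2, 80.0 Mb in AE replicate 1 and 91.0 Mb in AE replicate 2. Gained length was called over 63.1% and 23.5% in ISC replicates 1 and 2, and over 32.1% and 29.3% in AE replicates 1 and 2. Lost length was called over 37.1%, 8.20%, 7.29% and 15.2% in the same libraries, and kept length over 89.2%, 71.8%, 72.9% and 76.4%. For comparison, 48.7%, 19.6%, 22.8% and 25.5% of all length called in any embryonic library was called in them. Gained length thus lay above that level and lost length below it in each of the 4 adult libraries. Most of the length behind that level, 113 of 188 Mb, was called in a single library, while gained and lost length was called in 2. Length called in exactly 1 E12.5 and 1 E14.5 library averaged 27.4% to 33.3% over the adult libraries, between the 16.9% of lost and the 37.0% of gained length. All 4 adult libraries called 59.3% of the kept, 10.7% of the gained and 1.91% of the lost length, and none called 7.60%, 30.5% and 58.4%.

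Within the gains, the order in each adult library was inner, edge, new: 79.4%, 68.6% and 55.3% in ISC replicate 1, and 43.7%, 35.3% and 27.2% in AE replicate 1. Vanished runs were called over 33.8%, 5.91%, 4.96% and 11.4%, less than lost edges in each adult library. Calls in the embryo followed a like order. Length covered in both E14.5 libraries and 1 E12.5 library was called over 53.9% (with E12.5 replicate 1) or 51.9% (with replicate 2) on average over the adult libraries, between the 37.0% of gained and the 77.6% of kept length. Length called in 1 embryonic library alone came to 9.05% and 12.7% for the E12.5 replicates and 16.9% and 22.1% for the E14.5 replicates. On X the gained length was called over only 7.16%, 1.56%, 3.72% and 2.78% in the adult male libraries, against 65.2%, 24.3%, 33.2% and 30.3% on the autosomes.

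**Figure D5:**
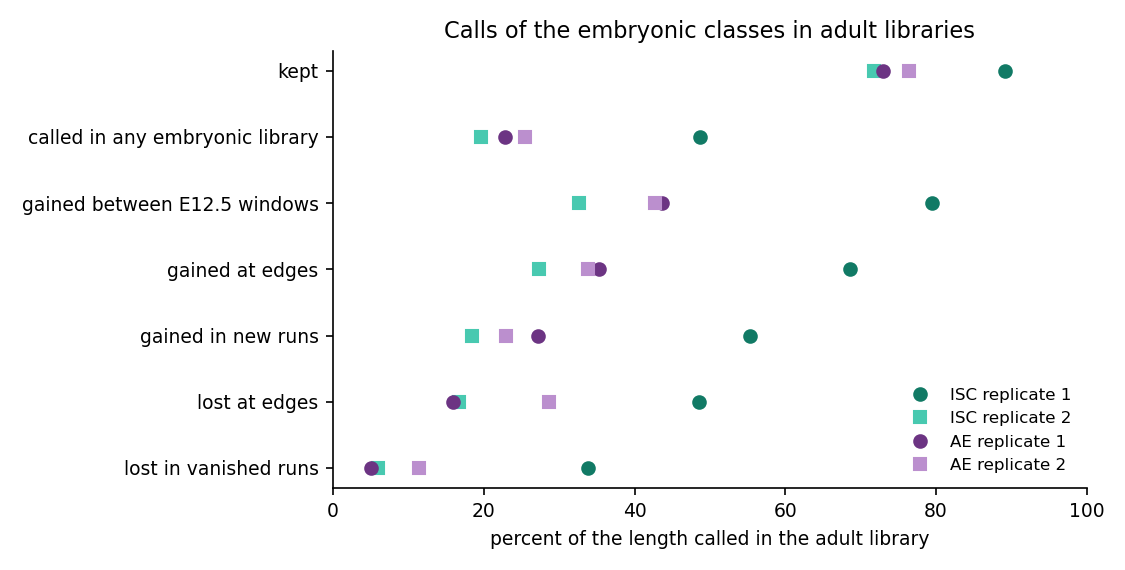
Percent of each embryonic class (rows) that was called in each of the 4 adult libraries (symbols). Of the classes shown, kept length was highest in each library, at 71.8% to 89.2%, and vanished runs lowest, at 4.96% to 33.8%.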

How the data were processed

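The data were 8 ChIP libraries, 4 of them embryonic, each deposited by the authors as 1 list of islands called separately per replicate. Processing used SICER 1.1, SAMtools 1.2, Bowtie 1.1.2 and bcl2fastq 1.8.4 with build mm9, per the submitters' processing notes. The deposited ChIP and control counts are whole reads inside islands, not normalized. Total reads per library are not given in the sources used here, so depth is unknown and read densities were compared only within a list or with their control. Chromosome, start, end and the 2 counts were used, read from files without a header. Chromatin had been sheared to about 350 to 700 bp, per the labels' protocols, so borders are known no better than that.

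Each list was laid onto 200 bp windows (numpy 2.4.6, pandas 2.3.3, Python 3.11.15), and coordinates are 1-based. The smallest gap between islands of a list is 1200 bp. Islands above 2 times the list's median control reads per kb were called high-control. Per-library values were tested by exact permutation over the libraries. Where duplicates come from the same pool, p-values measure technical spread only. Regions named were the 5 longest new runs, those with the most edge gain (6, by a tie) and the most inner gain, the 5 longest kept, the 5 longest lost that were not high-control, and the 5 bins of 1 Mb with most gain. The largest clusters, the X chromosome and the longest loss were added after their values were seen. Class functions were tested on simulated data and recovered all 6 simulated classes exactly. Both replicates of an age held the same intervals in that simulation, so it did not cover disagreement between replicates. The comparison and its measures were chosen with earlier results of these data known. Sequences and gene annotation of mm9 were not used here.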

Additional observations from a re-analysis of the deposited data

How the results depend on the processing

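Reads outside islands are not in the lists, so a window outside them is not called rather than unmarked, and no count test across libraries was run. Of the 11 changes beyond 1.5 times (or 1 SD) outside of leaving out libraries, most shortened a class without exchanging the order of gains and losses. Among the upper 50% of each list by ChIP reads per control read, gained, lost and kept length were 9.95, 0.781 and 12 Mb, with 3.73 Mb of new runs, 5.56 Mb of edges and 0.658 Mb of inner gains. At equal covered length, gains were 11.1 Mb, with 4.19 Mb in new runs and 5.94 Mb at edges. Counting only whole runs 1 kb clear of the other age gave 8.07 Mb gained, and whole E14.5 runs that hold kept windows gave 29.8 Mb. Clusters of 5 or more held 4.73% and 53.4% of gained stretches at 10 and 200 kb. Leaving out 1 library at a time gave 21.1 to 57.5 Mb gained, 2.88 to 34.7 Mb lost and 18.9 to 36.0 Mb kept. New runs then came to 9.26 to 30.3 Mb, edges to 8.30 to 23.5 Mb and inner gains to 0.927 to 3.73 Mb. Adult calls averaged 26.8% to 44.3% of gained, 9.63% to 26.2% of lost and 65.1% to 76.9% of kept length. Without E12.5 replicate 1, losses (28.3 Mb) exceeded gains (21.1 Mb); without E12.5 replicate 2 they were 34.7 and 35.4 Mb. With 1 library left at E12.5, its own calls alone make a loss. The E14.5 excess in covered length was 6.62 to 39.8 Mb, and in median island length −1.1 to 3.10 kb, the lowest without E12.5 replicate 2. Closing gaps of up to 1 kb changed nothing, since no gap is that small; closing gaps of up to 3 kb was chosen after seeing the data and gave a mean border shift of 1.1 kb against 0.850 kb. With the replicate numbers as pairs (replicate block), the differences of 23.2 Mb and 1.00 kb had exact sign-flip p-values of 0.500 and 1, where 0.500 is the smallest possible; the classes are the same with or without pairs. Same-numbered libraries deviated together across 1 Mb bins (r = 0.40), but 2 pairs cannot show that numbers pair the samples. The deviations were differences in kb, and replicate 2 was the longer list at both ages. Bins rich in called length can therefore raise r without any pairing.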
